A study of Mus musculus with 16 samples.

Results

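The comparison described here is the interaction of genotype and drug in epididymal fat (eWAT), that is, whether rosiglitazone and the K107R change of PPARg acted together as the sum or the product of their separate effects. It rests on 8 of the series' 16 RNA-seq libraries, chosen by their depot label, with 2 libraries in each of 4 groups: homozygous K107R mice given rosiglitazone, K107R mice given vehicle, wild-type (WT) mice given rosiglitazone, and WT mice given vehicle. The 8 inguinal fat (iWAT) libraries entered the fit to share its estimate of the spread. Levels, groups and libraries compared below are those of eWAT unless iWAT is named. All mice had 10 weeks of chow and 19 weeks of a diet with 60% of calories from fat. Gavage for 1 week followed, with rosiglitazone (10 mg/kg) or 1% methylcellulose as the vehicle. The labels used here state neither strain, sex nor the number of mice, so the p-values measure the spread between these libraries, which may be technical.

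PPARg is the nuclear receptor that directs fat cell formation and lipid storage, and rosiglitazone, a thiazolidinedione, is its agonist. With its partner RXR the receptor binds direct repeats of a hexamer near its target genes and switches them on when an agonist is bound. The lysine that K107R replaces lies in the amino-terminal part of the protein and is known as a site to which the small protein SUMO is attached, a modification linked to lower receptor activity. The mutant has arginine there, which cannot take SUMO.

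The codon concerned is shown because it is the one difference between the genotypes that the labels give. It was read from the GRCm38 genome and the GENCODE M21 transcript Pparg-201, which has 505 codons. The codon lies on chromosome 6 at 115441500 to 115441502 on the plus strand, in exon 3 of 7. The run below spans the junction with the exon before it, from 115440058 to 115441520, and the capitals mark the lysine codon.
Pparg at the K107R codon, reference allele: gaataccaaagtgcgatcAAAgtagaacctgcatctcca
The codon next but one after the lysine encodes a glutamate, as in the lysine-x-glutamate core of SUMO sites. FPKM values per gene do not show a codon change, so they cannot check the genotype. Pparg itself had a log2 interaction of 0.44 (adjusted p = 0.995).

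Values are FPKM, a level that is scaled to transcript length and to the size of the library, and the depth of each library is unknown. The interaction was computed on log2(FPKM + 1) as the rosiglitazone response in K107R minus that in WT, which is 0 when the separate effects multiply. The pseudocount of 1 shrinks changes at low levels and can lower or raise an interaction. In plain FPKM a second measure was computed, the K107R rosiglitazone mean minus the sum of effects (K107R vehicle plus WT rosiglitazone minus WT vehicle), which is 0 when they add. A gene past the first test departs from a product, and a gene past the second departs from a sum. Synergy is used here for K107R rosiglitazone above the sum, and the plain ratio of the 2 drug ratios then says whether it was also above the product.

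The K107R vehicle libraries held transcripts of another tissue. Of 7 epididymis markers in the table, such as the secreted sperm-coat protein Crisp1 and the lipocalin Lcn5, the summed level was 0.5003 to 6.45 FPKM in K107R rosiglitazone, 3504 to 3836 in K107R vehicle, 0.165 to 0.337 in WT rosiglitazone and 0.0244 to 0.209 in WT vehicle. Of the 7, 1 was listed at 0 in both WT rosiglitazone libraries and 3 in both WT vehicle libraries. The 10 epithelium markers, keratins among them, summed to 16.7 to 16.9 FPKM in K107R rosiglitazone, 145 to 147 in K107R vehicle, 26.0 to 28.4 in WT rosiglitazone and 21.0 to 22.0 in WT vehicle. Markers of mature fat cells were high in all 8 libraries, summing to 11331 to 11520.5 FPKM in K107R rosiglitazone, 7814 to 8552 in K107R vehicle, 9020 to 9105 in WT rosiglitazone and 7349 to 7703 in WT vehicle, with Fabp4 left out. No interaction can be computed without the K107R vehicle group.

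Genes were set aside where each of the other 6 eWAT libraries was below 1 FPKM or below 1% of the mean in K107R vehicle, a rule that takes genes low in every eWAT group as well as genes seen almost only in K107R vehicle. The carrier Fabp4, listed at 0 in both K107R rosiglitazone libraries and at 14168 to 23048 FPKM in the other 6, was set aside as well. This took 674 of the 13669 genes tested. Leaving out Fabp4, 305 of these had a K107R vehicle mean of at least 1 FPKM and 368 a lower one. A further 75 genes listed at 0 in one eWAT library but at 10 FPKM or more in another were left out, leaving 12920. Among genes with a K107R vehicle mean of at least 10 FPKM, the one nearest inside the limit was the membrane protein Pdzk1ip1, with a mean of 16.1 FPKM and at most 0.930 FPKM in any other eWAT library. The nearest outside was Spink2, a protease inhibitor of the reproductive tract, with a mean of 21.1 FPKM and at most 1.11 FPKM. Of the set-aside genes, 242 were past the test below 0 and 2 above 0. Over all 13669 genes 346 passed (2.53%), 32 above 0 (0.234%) and 314 below 0 (2.3%).

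**Figure D1:**
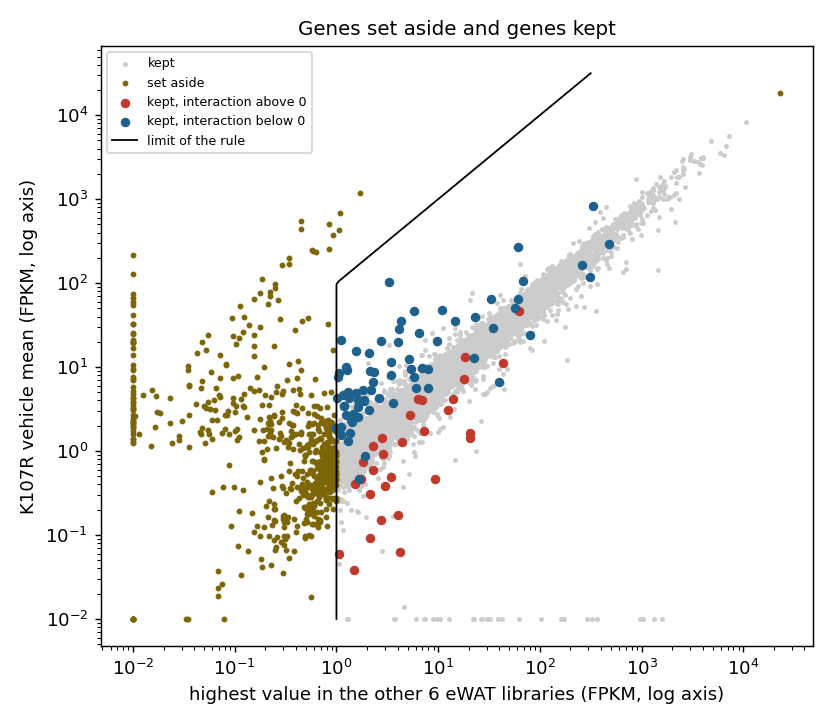
Mean FPKM in the 2 K107R vehicle libraries (y, log axis) against the highest FPKM in the other 6 eWAT libraries (x, log axis), 1 point per gene, with values under 0.01 drawn at 0.01. Set-aside genes (brown) lie left of or above the limit (black line) apart from Fabp4 at the top right, and kept genes past the interaction test are drawn blue below 0 and red above 0.

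Among the 12920 genes, 100 had an interaction past the test (0.774%), which was limma's adjusted p below 0.05, 30 above 0 (0.232%) and 70 below 0 (0.542%). All 100 kept their sign in each of the 16 ways to take 1 library from each group, which their choice by a test on the same libraries makes likely. Against a sum of effects, 47 genes lay above (0.364%) and 73 below (0.565%). Each of the 30 genes above a product also lay above the sum, while 65 of the 73 below the sum were below the product.

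The group that stood furthest from the other groups differed between the directions. Of the 47 genes above the sum, K107R rosiglitazone stood apart as the high group in 35, WT vehicle as the high group in 9, WT rosiglitazone as the low group in 2, and K107R vehicle as the low group in 1. Of the 70 genes with an interaction below 0, K107R vehicle stood apart as the high group in 54, K107R rosiglitazone as the low group in 8, WT rosiglitazone as the high group in 6, and WT vehicle as the low group in 2. In the 54, the K107R vehicle mean was 1.21 to 31.1 times the highest other eWAT library, with a median of 2.88. The part of the other tissue in these 54 was not tested.

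A plain ratio of the drug ratios was computed where every group mean reached 0.5 FPKM, a limit chosen after the data were seen. It could be had for 15 of the 30 genes above the product, where it was 1.85 to 11.8 with a median of 2.45. For 62 of the 70 below the product it was 0.0226 to 0.587 with a median of 0.283. Of the 47 genes above the sum, 27 had such a ratio, and it exceeded 1.5 in 24. In the other 3 it was between 1.20 and 1.5. These lay above a sum and missed the test against a product, which does not show that they equalled it.

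The calls were sensitive to single libraries, to scaling, to the pseudocount and to the set-aside genes. Adjustment ran over all 13669 genes, set-aside genes included, so its threshold was not set for the 12920 alone. With the set-aside genes left out before the fit, 10 of the 30 calls above 0 and 41 of the 70 below 0 passed. Among those that missed the test were Fabp3, Elovl3, Fgf21, Slc25a34, Igtp and Ccl8 (adjusted p = 0.0553 to 0.148). The median interaction of all 12920 genes was 0.16, and -0.01 after each library was rescaled by its median ratio, so directions near 0.16 are not read. With the replicate number as a block 304 genes passed, 114 above 0 and 190 below 0, and 158 lay above and 188 below the sum. The number 2 library of K107R rosiglitazone stood apart from the others with number 2: its beta-actin transcript Actb was at 938 FPKM, against 96.9 to 261 FPKM in the other 3 and 1460 to 2016 FPKM in those with number 1. Of the 30 calls above 0, 11 passed in all 8 fits with 1 eWAT library left out, 12 passed after rescaling and 8 did both. Of the 70 below 0 the numbers were 40, 38 and 29. With no pseudocount, an alternative chosen after the data were seen, a value could be had for 26 of the 30 and 69 of the 70, and 10 and 32 of these passed.

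**Figure D2:**
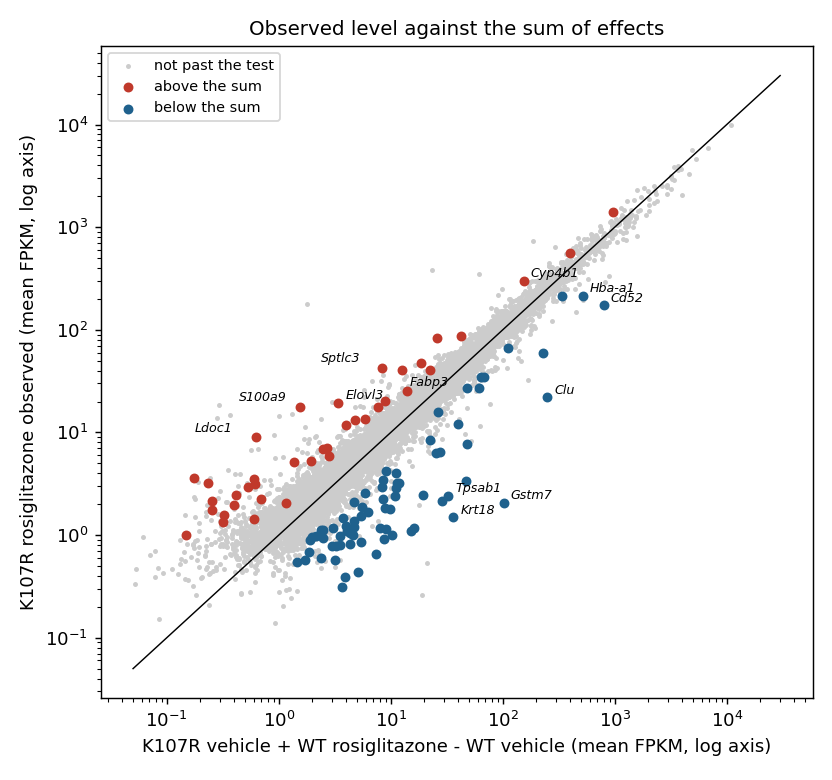
K107R rosiglitazone mean FPKM (y, log axis) against the sum of effects, K107R vehicle plus WT rosiglitazone minus WT vehicle (x, log axis), 1 point per gene. The genes are the 12995 not set aside, with the 75 left out for listed zeros included. Genes whose sum or observed mean was below or close to 0 are not drawn. Among these are 105 of the 12920 with a sum at or below 0 (9 of them above the sum). The line marks an exact sum, red points are past the test above it and blue points past it below.

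Genes of brown and beige fat cells, which burn fatty acids to make heat, were the list of genes for fat cell functions with the highest median interaction. Of 11 measured members 2 passed above 0, 0 below, and 4 lay above the sum, with a median of 1.06 (0.16 over all genes, and 0.89 for the list after rescaling). Over all 12920 genes the shares were 0.232% above 0, 0.542% below 0, 0.364% above the sum and 0.565% below it. These shares stand beside the counts of every list below. With the replicate block 5 passed. The 2 were Fabp3, a carrier of fatty acids, and Elovl3, an elongase of very long fatty acids.

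Fabp3 (chromosome 4, 130308595 to 130315463) had 37.9 and 43.5 FPKM in the K107R rosiglitazone libraries, 9.63 and 12.9 with K107R vehicle, 6.77 and 7.68 with WT rosiglitazone, and 4.91 and 6.85 with WT vehicle. K107R rosiglitazone stood alone at the high end and the other groups lay within 4.91 to 12.9. Its mean of 40.7 ± 3.95 FPKM (SD, n = 2) stood against a sum of effects of 12.6 FPKM and a product of 13.8 FPKM, so it was 3.23 times the sum, with a ratio of ratios of 2.94 (log2 interaction 1.51 ± 0.33 SE, adjusted p = 0.041). Elovl3 (chromosome 19, 46131897 to 46135694) had 18.6 and 20.5 FPKM in the K107R rosiglitazone libraries, 2.16 and 1.12 with K107R vehicle, 2.47 and 1.75 with WT rosiglitazone, and 0.353 and 0.365 with WT vehicle. It was 5.77 times the sum (log2 interaction 1.805 ± 0.40 SE, adjusted p = 0.0436). The Elovl3 interaction was 1.32 with a pseudocount of 0.1 (adjusted p = 0.637) and 1.12 with none (adjusted p = 0.993). That of Fabp3 kept its size, at 1.55 with none, and missed the test (adjusted p = 0.0559 with 0.1 and 0.124 with none). Fabp3 did not pass after rescaling (adjusted p = 0.913), and Fabp3 and Elovl3 passed in 2 and 1 of the 8 fits with a library left out.

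Cidea and Cox8b were the other members above the sum. Cidea, a lipid droplet protein of brown fat, had 21.1 and 19.4 FPKM in the K107R rosiglitazone libraries, 6.32 and 7.52 with K107R vehicle, 4.98 and 6.30 with WT rosiglitazone, and 4.45 and 3.07 with WT vehicle and lay 11.4 ± 2.05 FPKM (SE; adjusted p = 0.0117) above its sum of 8.80. Cox8b, a subunit of cytochrome c oxidase, had 81.3 and 91.8 FPKM in the K107R rosiglitazone libraries, 30.8 and 31.9 with K107R vehicle, 36.3 and 39.9 with WT rosiglitazone, and 25.4 and 28.3 with WT vehicle and lay 44.0 ± 8.97 FPKM (SE; adjusted p = 0.0265) above its sum of 42.5. In both genes the K107R rosiglitazone libraries were above all others, and their log2 interactions of 0.94 and 0.95 missed the test (adjusted p = 0.115 and 0.112). With the replicate block Cox8b passed (adjusted p = 0.00299). After rescaling neither lay past the sum (adjusted p = 0.542 and 1), and Cox8b passed in 0 of 8 fits with a library left out.

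Ucp1, the uncoupling protein that defines thermogenic fat cells, had 19.0 and 20.2 FPKM in the K107R rosiglitazone libraries, 2.42 and 1.01 with K107R vehicle, 3.46 and 2.54 with WT rosiglitazone, and 1.91 and 1.53 with WT vehicle. The K107R rosiglitazone libraries lay above all others by more than the spread within any group, yet the log2 interaction of 2.42 missed the test (adjusted p = 0.111) and passed with the replicate block (adjusted p = 0.00205) and after rescaling (adjusted p = 0.00103). Cox7a1, a further oxidase subunit, had 36.6 and 36.3 FPKM in the K107R rosiglitazone libraries, 10.6 and 15.7 with K107R vehicle, 15.1 and 14.9 with WT rosiglitazone, and 11.4 and 14.1 with WT vehicle (adjusted p = 0.237, and 0.0251 with the replicate block). Prdm16, the regulator of brown fat identity, stayed low: 1.25 and 1.15 FPKM in K107R rosiglitazone, 1.24 and 0.474 with K107R vehicle, 1.02 and 0.641 with WT rosiglitazone, and 1.33 and 0.831 with WT vehicle. Its groups overlapped. Ucp1, Cox8b, Cox7a1 and Prdm16 were chosen after their values were seen.

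**Figure D3:**
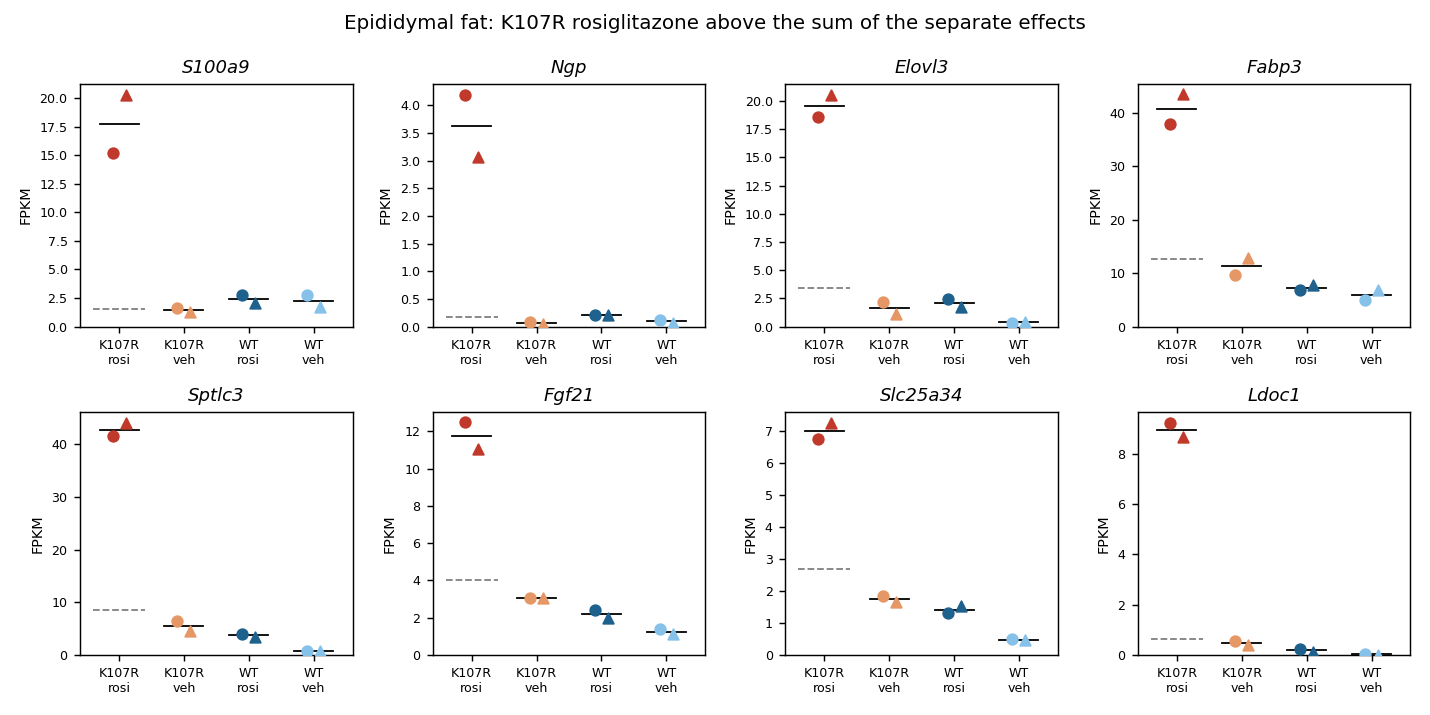
FPKM (y) of 8 genes above the sum, in the 2 libraries of each eWAT group (x; rosi, rosiglitazone; veh, vehicle), with circles for replicate number 1, triangles for number 2, and solid bars for group means. The dashed bar beside K107R rosiglitazone is the sum of effects, and in each panel both K107R rosiglitazone libraries lie above it and above every other library.

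Fatty acid oxidation, the breakdown of fatty acids in mitochondria and peroxisomes, had 20 measured genes, of which 0 passed in either direction and 19 had a value above 0 (9098 of all 12920 did). The median was 0.53, and 0.32 after rescaling. Ehhadh, the bifunctional enzyme of peroxisomal oxidation, was the 1 member above the sum. It had 81.7 and 84.3 FPKM in the K107R rosiglitazone libraries, 18.8 and 13.5 with K107R vehicle, 21.0 and 17.7 with WT rosiglitazone, and 10.3 and 8.59 with WT vehicle. The K107R rosiglitazone mean was 3.18 times the sum of 26.1 FPKM and the ratio of ratios was 2.50. It departed from the sum by 56.9 ± 11.9 FPKM (SE; adjusted p = 0.0308). Its log2 interaction was 1.34 (adjusted p = 0.185, 0.00399 with the replicate block, under which 2 members passed). The departure from the sum passed in 1 of 8 fits with a library left out. Cpt1b, the carrier-linked transferase that lets fatty acids into mitochondria, had 32.3 and 31.3 FPKM in the K107R rosiglitazone libraries, 8.44 and 2.74 with K107R vehicle, 5.63 and 3.12 with WT rosiglitazone, and 4.09 and 2.11 with WT vehicle. Its vehicle libraries differed by replicate number within each genotype, and the interaction of 2.07 missed the test (adjusted p = 0.995). Cpt1b was chosen after its values were seen. The 22 genes of the respiratory chain and citrate cycle had a median of 0.34 (0.13 after rescaling), and 0 passed in either direction.

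Slc25a34, a carrier of the mitochondrial inner membrane family, had 6.75 and 7.26 FPKM in the K107R rosiglitazone libraries, 1.85 and 1.65 with K107R vehicle, 1.30 and 1.52 with WT rosiglitazone, and 0.486 and 0.457 with WT vehicle. It lay 4.31 ± 0.517 FPKM (SE; adjusted p = 0.000643) above a sum of 2.69 FPKM, a departure that passed in 8 of 8 fits with a library left out and had an adjusted p of 0.053 after rescaling. Against the product (log2 interaction 0.83 ± 0.17 SE, adjusted p = 0.0257) it passed in 1 of the 8 fits and missed the test after rescaling (adjusted p = 0.623). With no pseudocount the interaction was 0.42 (adjusted p = 0.993). In iWAT the Slc25a34 interaction, with the pseudocount of 1, was 1.02 (limma adjusted p = 0.0197). Fbp2, the muscle form of fructose bisphosphatase, had 16.2 and 19.1 FPKM in the K107R rosiglitazone libraries, 5.96 and 7.47 with K107R vehicle, 3.85 and 5.23 with WT rosiglitazone, and 3.22 and 3.82 with WT vehicle and lay 9.93 ± 2.15 FPKM (SE; adjusted p = 0.0384) above the sum, in 2 of those 8 fits. Oplah, the 5-oxoprolinase of the glutathione cycle, lay 17.7 ± 3.07 FPKM (SE; adjusted p = 0.00931) above a sum of 22.5 FPKM, with 40.2 ± 0.101 FPKM in K107R rosiglitazone. For both the ratio of ratios exceeded 1.5, at 2.04 for Fbp2 and 1.71 for Oplah. After rescaling neither departed from the sum past the test (adjusted p = 0.954 and 1). Fbp2 and Oplah were chosen after their values were seen.

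PPARg targets and triglyceride storage genes separate the 2 yardsticks. Of 23 measured members, 0 passed against a product and 3 lay above the sum, with a median interaction of 0.26 (0.05 after rescaling). With the replicate block 1 passed against a product above 0 and 1 below. Gpd1, which makes glycerol phosphate for triglycerides, had 1473 and 1335 FPKM in the K107R rosiglitazone libraries, 616 and 611 with K107R vehicle, 770.0 and 762 with WT rosiglitazone, and 411 and 416 with WT vehicle. Rosiglitazone raised it in K107R (log2 1.19 ± 0.11 SE, adjusted p = 7.32e-05) and in WT (log2 0.89 ± 0.11 SE, adjusted p = 0.014). Its K107R rosiglitazone mean was 1.45 times the sum of 966 FPKM but stood near the product of 1136 FPKM, with a ratio of ratios of 1.24 and a log2 interaction of 0.30 (adjusted p = 0.995).

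Pck1, the enzyme of glycerol synthesis from pyruvate, was likewise above the sum and near the product. It had 536 and 577 FPKM in the K107R rosiglitazone libraries, 271 and 258 with K107R vehicle, 300.3 and 311 with WT rosiglitazone, and 179 and 169 with WT vehicle, which was 1.41 times its sum of 396 FPKM with a ratio of ratios of 1.20. Its departure from the sum was 160.5 ± 36.4 FPKM (SE; adjusted p = 0.0498), and that of Gpd1 was 438 ± 99.3 FPKM (SE; adjusted p = 0.0498), both at the threshold. Neither passed in any of the 8 fits with a library left out. Cyp4b1, a cytochrome P450 that acts on fatty acids, had 292 and 308 FPKM in the K107R rosiglitazone libraries, 99.2 and 84.8 with K107R vehicle, 113 and 110.5 with WT rosiglitazone, and 51.0 and 49.1 with WT vehicle. It lay 146 ± 19.6 FPKM (SE; adjusted p = 0.00146) above its sum of 153 FPKM, in 8 of 8 fits, with a ratio of ratios of 1.46 and an interaction of 0.56 that missed the test (adjusted p = 0.219). After rescaling its departure missed the test (adjusted p = 0.471). Gpd1, Pck1 and Cyp4b1 were chosen after their values were seen, and they are the 3 with a ratio of ratios under 1.5 among the 27 genes above the sum whose group means all reached 0.5 FPKM. Without that limit 6 of 45 genes lay under 1.5, Slc25a34 at 1.34 and Cacng5 at 1.25 among them.

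In some PPARg-responsive genes the departure from a sum did not pass the test. Rbp7, which binds retinol, had 337 and 364 FPKM in the K107R rosiglitazone libraries, 83.8 and 112 with K107R vehicle, 231 and 305 with WT rosiglitazone, and 41.0 and 51.3 with WT vehicle. Rosiglitazone raised it in K107R (log2 1.85 ± 0.25 SE, adjusted p = 0.00105) and in WT (log2 2.51 ± 0.25 SE, adjusted p = 0.0053), and the observed mean was 1.10 times the sum (adjusted p = 1), with a ratio of ratios of 0.618 (adjusted p = 0.995, and 0.0262 with the replicate block, below 0). Plin5, a lipid droplet protein that links droplets to mitochondria, had 51.0 and 67.1 FPKM in the K107R rosiglitazone libraries, 30.9 and 44.6 with K107R vehicle, 11.1 and 17.1 with WT rosiglitazone, and 5.36 and 7.24 with WT vehicle. Its K107R libraries were higher than its WT libraries under either treatment, while the interaction of -0.39 missed the test (adjusted p = 0.995). Its departure from the sum, 13.5 FPKM, missed the test (adjusted p = 1) and passed with the replicate block (adjusted p = 0.0482). Adiponectin, Adipoq, the main hormone of fat cells, was at 1952 and 2022 FPKM in the K107R rosiglitazone libraries, 1199 and 1068 with K107R vehicle, 1885 and 2107 with WT rosiglitazone, and 1347 and 1484 with WT vehicle. Its 2 rosiglitazone groups overlapped, and the interaction was 0.32 (adjusted p = 0.995). Rbp7 and Plin5 were chosen after their values were seen.

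The hormone gene Fgf21 and the sphingolipid enzyme gene Sptlc3 also lay above the sum. Fgf21 (chromosome 7, 45613886 to 45615490), which encodes a metabolic hormone, had 12.5 and 11.1 FPKM in the K107R rosiglitazone libraries, 3.07 and 3.03 with K107R vehicle, 2.42 and 1.95 with WT rosiglitazone, and 1.37 and 1.12 with WT vehicle. K107R rosiglitazone was 2.95 times the sum of 3.99 FPKM and the ratio of ratios was 2.196 (log2 interaction 1.15 ± 0.21 SE, adjusted p = 0.0134). It passed in 5 of 8 fits with a library left out, and neither after rescaling (adjusted p = 0.339) nor with a pseudocount of 0.1 (adjusted p = 0.0659). It was the 1 of 14 adipokines past the test, with 0 below 0 (1 with the replicate block).

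Sptlc3 (chromosome 2, 139493913 to 139637674) encodes a subunit of serine palmitoyltransferase, the first enzyme of sphingolipid synthesis. It had 41.6 and 44.0 FPKM in the K107R rosiglitazone libraries, 6.46 and 4.48 with K107R vehicle, 3.88 and 3.47 with WT rosiglitazone, and 0.686 and 0.754 with WT vehicle. Rosiglitazone raised it in K107R (log2 2.78 ± 0.23 SE, adjusted p = 2.35e-05) and in WT (log2 1.44 ± 0.23 SE, adjusted p = 0.0395). The K107R rosiglitazone mean was 5.08 times the sum of 8.42 FPKM but nearer to the product of 27.9 FPKM, a departure of 34.4 ± 5.07 FPKM (SE; adjusted p = 0.00286) from the sum and a ratio of ratios of 1.53. Against the product its log2 interaction of 1.34 missed the test (adjusted p = 0.0836) and passed with the replicate block (adjusted p = 0.0087) and after rescaling (adjusted p = 0.000954). Of 15 sphingolipid genes it was the 1 above the sum, and 0 passed against the product in either direction. With no pseudocount the Sptlc3 interaction was 0.64 (adjusted p = 0.993). In iWAT its log2 interaction, with the pseudocount of 1, was 2.38 (limma adjusted p = 0.00774).

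Several genes were close to absent in the other eWAT groups than K107R rosiglitazone. Ldoc1, which encodes a small leucine zipper protein (chromosome X, 61709497 to 61710955), had 9.22 and 8.70 FPKM in the K107R rosiglitazone libraries, 0.533 and 0.397 with K107R vehicle, 0.238 and 0.125 with WT rosiglitazone, and 0.0284 and 0 with WT vehicle, where the last is listed at 0 (log2 interaction 2.55 ± 0.14 SE, adjusted p = 1.18e-06). Rspo4, a secreted amplifier of Wnt signalling, had 3.42 and 2.93 FPKM in the K107R rosiglitazone libraries, 0.610 and 0.370 with K107R vehicle, 0.487 and 0.329 with WT rosiglitazone, and 0.398 and 0.170 with WT vehicle (log2 interaction 1.35 ± 0.16 SE, adjusted p = 0.00047). Scnn1g, a subunit of the epithelial sodium channel, had 3.01 and 2.87 FPKM in the K107R rosiglitazone libraries, 0.418 and 0.344 with K107R vehicle, 0.196 and 0.180 with WT rosiglitazone, and 0.0483 and 0.0338 with WT vehicle (log2 interaction 1.32 ± 0.16 SE, adjusted p = 0.00072). In these 3 genes both K107R rosiglitazone libraries exceeded all other eWAT libraries, and each passed after rescaling. With a library left out the log2 interaction was 2.48 to 2.62 for Ldoc1, 1.22 to 1.48 for Rspo4 and 1.28 to 1.36 for Scnn1g. In iWAT Scnn1g reached 5.46 FPKM and its log2 interaction there was 1.48 (limma adjusted p = 0.00205). Ldoc1 reached 1.13 FPKM in iWAT and Rspo4 0.0617 FPKM. With a pseudocount of 0.1 the adjusted p was 0.00232 for Ldoc1, 0.051 for Rspo4 and 0.0301 for Scnn1g, and with none the Scnn1g interaction was 0.74 (adjusted p = 0.993). Without the limit of 0.5 FPKM the plain ratio of ratios was 1.51 for Ldoc1, 1.69 for Scnn1g and 4.51 for Rspo4. The Ldoc1 ratio rests on a WT vehicle mean of 0.0142 FPKM, and the size of its departure from a product depends on the pseudocount. Rspo4 reached 1 FPKM in the K107R rosiglitazone libraries of eWAT alone, so it entered the test through the group where it is high. Its test results are therefore a description.

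Among the butyrophilin-like genes, which encode surface proteins related to T cell regulators, Btnl4 had 3.06 and 4.05 FPKM in the K107R rosiglitazone libraries, 0.157 and 0.191 with K107R vehicle, 0.520 and 0.553 with WT rosiglitazone, and 0.110 and 0.102 with WT vehicle (log2 interaction 1.47 ± 0.18 SE, adjusted p = 0.000638). Btnl6 followed at a lower level, with 1.01 ± 0.0796 FPKM in K107R rosiglitazone (log2 interaction 0.80, adjusted p = 0.00169). The Btnl genes are closely related neighbours on chromosome 17 whose reads can be split between copies, so these values are uncertain. After rescaling Btnl4 and Btnl6 missed the interaction test (adjusted p = 0.0885 and 0.162). In iWAT the log2 interaction was 1.11 for Btnl6 (limma adjusted p = 0.00115) and 0.79 for Btnl4, which missed the test (adjusted p = 0.0964). Arc, best known as a gene switched on by neuronal activity, had 13.4 and 13.8 FPKM in the K107R rosiglitazone libraries, 3.71 and 4.71 with K107R vehicle, 4.99 and 4.98 with WT rosiglitazone, and 3.08 and 3.51 with WT vehicle and a ratio of ratios of 2.14 (log2 interaction 1.01 ± 0.21 SE, adjusted p = 0.0278). Cacng5, which encodes a calcium channel gamma-type subunit, had 5.28 and 5.24 FPKM in the K107R rosiglitazone libraries, 1.74 and 1.49 with K107R vehicle, 0.556 and 0.563 with WT rosiglitazone, and 0.230 and 0.197 with WT vehicle and lay 3.30 ± 0.598 FPKM (SE; adjusted p = 0.0124) above the sum. Its log2 interaction was 0.90 (adjusted p = 0.137, and 0.0137 with the replicate block) and 0.32 with no pseudocount (adjusted p = 0.993). Arc passed against the product in 1 of 8 fits with a library left out and not after rescaling (adjusted p = 0.977). Arc and Cacng5 were chosen after their values were seen.

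The promoters of the genes above the sum were searched for the hexamer AGGTCA, the unit of a PPAR element, and for the direct repeat AGGTCANAGGTCA, on both strands, with each repeat also counted as a match of the hexamer. RefSeq promoters (GRCm38.p6, 250 bases before to 50 after the start) were found for 22 of the 27 named genes above the sum with a K107R rosiglitazone mean of at least 2 FPKM. The hexamer was in 3 of the 22 and the direct repeat in 0, against 16.255% and 0.04% of all 32851 promoters in the table. The promoter of Slc25a34, one of the 3, is shown as the gene of mitochondrial transport among them. It lies on the minus strand at chr4:141623785-141624084, and the capitals mark the hexamer, read on the opposite strand, whose first base is at -119 from the start.
Slc25a34 promoter: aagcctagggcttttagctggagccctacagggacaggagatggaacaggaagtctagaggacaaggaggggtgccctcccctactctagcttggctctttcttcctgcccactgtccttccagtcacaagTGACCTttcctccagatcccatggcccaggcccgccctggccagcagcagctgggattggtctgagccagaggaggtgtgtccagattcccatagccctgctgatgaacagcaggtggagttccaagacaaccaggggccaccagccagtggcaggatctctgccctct
The match is a description of these letters and says nothing of binding.

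Of 9 measured neutrophil markers, 4 passed above 0 and 1 below (0.232% and 0.542% of all genes did), with a median of 0.99, and 0.78 after rescaling. Of those 4, Mpo, Ngp and Camp reached 1 FPKM in the K107R rosiglitazone libraries of eWAT alone, so these 3 entered the test through the group where they are high and the count is a description. The same held for 4 of all 30 genes above 0. S100a9, a subunit of calprotectin (chromosome 3, 90692632 to 90695721), had 15.2 and 20.3 FPKM in the K107R rosiglitazone libraries, 1.60 and 1.24 with K107R vehicle, 2.74 and 2.04 with WT rosiglitazone, and 2.751 and 1.75 with WT vehicle. The K107R rosiglitazone mean of 17.8 ± 3.62 FPKM (SD, n = 2) was 11.4 times the sum of 1.56 FPKM, and the ratio of ratios was 11.8 (log2 interaction 2.87 ± 0.35 SE, adjusted p = 0.000657). Ngp, the neutrophilic granule protein, had 4.19 and 3.06 FPKM in the K107R rosiglitazone libraries, 0.0739 and 0.0520 with K107R vehicle, 0.211 and 0.206 with WT rosiglitazone, and 0.125 and 0.0687 with WT vehicle (log2 interaction 1.97 ± 0.17 SE, adjusted p = 3.74e-05). Mpo, the myeloperoxidase of young neutrophils, had 1.47 and 1.17 FPKM in the K107R rosiglitazone libraries, 0.0460 and 0.0307 with K107R vehicle, 0.0373 and 0.0226 with WT rosiglitazone, and 0.111 and 0.153 with WT vehicle (log2 interaction 1.29 ± 0.09 SE, adjusted p = 1.13e-05).

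These 3 genes were highest in both K107R rosiglitazone libraries with no overlap. With a library left out the log2 interaction was 2.65 to 3.10 for S100a9, 1.79 to 2.15 for Ngp and 1.20 to 1.39 for Mpo. Each passed after rescaling. For Ngp and Mpo these results are a description, since both entered the test through the group where they are high. Camp, which encodes the antimicrobial cathelicidin, had 2.76 and 2.17 FPKM in K107R rosiglitazone, 0.138 and 0.167 with K107R vehicle, 0 and 0.522 with WT rosiglitazone, and was listed at 0 in both WT vehicle libraries (log2 interaction 1.28 ± 0.29 SE, adjusted p = 0.0477). It passed in 1 of 8 fits with a library left out, and neither after rescaling (adjusted p = 0.208) nor with a pseudocount of 0.1 (adjusted p = 0.993). Ltf, lactoferrin, was the member below 0, with 0.863 and 1.16 FPKM in the K107R rosiglitazone libraries, 4.996 and 4.22 with K107R vehicle, 0.306 and 0.339 with WT rosiglitazone, and 0.310 and 0.322 with WT vehicle, and was thus highest in K107R vehicle (log2 interaction -1.49 ± 0.14 SE, adjusted p = 8.19e-05).

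S100a8, the partner of S100a9 in calprotectin, chosen after its values were seen, had 39.9 and 30.4 FPKM in the K107R rosiglitazone libraries, 58.2 and 25.7 with K107R vehicle, 25.6 and 18.9 with WT rosiglitazone, and 60.2 and 40.8 with WT vehicle. Its groups overlapped and the interaction missed the test (adjusted p = 0.995). The summed level of 10 neutrophil markers was 65.7 to 71.2 FPKM in K107R rosiglitazone, 34.2 to 68.8 in K107R vehicle, 26.9 to 34.9 in WT rosiglitazone and 46.8 to 68.7 in WT vehicle, with 1 marker listed at 0 in both WT vehicle libraries. The sum for K107R rosiglitazone overlapped that of K107R vehicle and of WT vehicle, and S100a8 made up most of it in WT vehicle. In bulk tissue more cells of a type and more RNA per cell cannot be told apart.

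A second shape above 0 came from WT vehicle. Mmp9, the gelatinase of matrix remodelling, had 1.17 and 1.20 FPKM in the K107R rosiglitazone libraries, 1.39 and 1.15 with K107R vehicle, 1.06 and 0.982 with WT rosiglitazone, and 4.39 and 3.90 with WT vehicle (log2 interaction 1.30 ± 0.22 SE, adjusted p = 0.00736). Rosiglitazone lowered it in WT (log2 -1.35 ± 0.15 SE, adjusted p = 0.00775), while its response in K107R missed the test (log2 -0.05 ± 0.15 SE, adjusted p = 0.904). Igtp, an interferon-induced GTPase, had 8.35 and 8.11 FPKM in the K107R rosiglitazone libraries, 6.399 and 7.85 with K107R vehicle, 8.12 and 9.02 with WT rosiglitazone, and 15.5 and 18.1 with WT vehicle (log2 interaction 1.08 ± 0.22 SE, adjusted p = 0.0259), and rosiglitazone lowered it in WT (log2 -0.89 ± 0.15 SE, adjusted p = 0.0471). In Mmp9 and Igtp the WT vehicle libraries were above all others and the other 3 groups lay close together, and the sum of effects was below 0 (-1.86 FPKM for Mmp9 and -1.09 FPKM for Igtp). Ptch1, the hedgehog receptor, had 2.30 and 2.21 FPKM in the K107R rosiglitazone libraries, 1.57 and 1.26 with K107R vehicle, 1.39 and 1.11 with WT rosiglitazone, and 2.81 and 2.72 with WT vehicle (log2 interaction 1.18 ± 0.26 SE, adjusted p = 0.041), with K107R rosiglitazone between K107R vehicle and WT vehicle.

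Of 18 interferon response genes, 1 passed above 0 (0.232% of all genes did) and 0 below, and 5 passed with the replicate block. All 18 had a value above 0, as did 9098 of all 12920 genes, with a median of 0.67 (0.49 after rescaling). The list's median was 0.04 for K107R rosiglitazone over WT rosiglitazone and -0.74 for K107R vehicle over WT vehicle. Ccl8, a chemokine for monocytes, had 47.2 and 46.9 FPKM in the K107R rosiglitazone libraries, 46.1 and 46.0 with K107R vehicle, 32.8 and 34.4 with WT rosiglitazone, and 61.9 and 60.1 with WT vehicle (log2 interaction 0.87 ± 0.18 SE, adjusted p = 0.0344). WT rosiglitazone was the low group, WT vehicle the high one, and both K107R groups lay between them. It was the 1 of 14 inflammatory mediators past the test, with 0 below 0 and a median of 0.53 (3 above 0 with the replicate block).

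Cd4, the coreceptor of helper T cells, had 0.795 and 0.674 FPKM in the K107R rosiglitazone libraries, 0.428 and 0.378 with K107R vehicle, 0.730 and 0.734 with WT rosiglitazone, and 1.52 and 1.40 with WT vehicle (log2 interaction 0.81 ± 0.17 SE, adjusted p = 0.0292), and was the 1 of 14 T and NK cell markers past the test, with 0 below 0 and a median of 0.51 (2 above 0 with the replicate block). The summed level of 15 T and NK cell markers was 40.7 to 47.9 FPKM in K107R rosiglitazone, 28.9 to 50.6 in K107R vehicle, 50.9 to 68.7 in WT rosiglitazone and 57.4 to 72.7 in WT vehicle. The sum of 10 B and plasma cell markers was 15.79 to 15.96 FPKM in K107R rosiglitazone, 10.14 to 17.998 with K107R vehicle, 19.9 to 26.7 with WT rosiglitazone and 39.3 to 58.9 with WT vehicle, and of 8 such markers measured 0 passed in either direction (2 above 0 with the replicate block). The part of these cells in the interferon genes was not tested. Igtp, Ccl8 and Cd4 did not pass after rescaling (adjusted p = 0.997, 0.997 and 0.907). With a library left out Igtp passed in 1 of 8 fits, and Ccl8, Cd4 and Ptch1 in 0.

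Helz2, a helicase that acts as a coactivator of PPARs and is induced by interferon, had 7.01 and 6.69 FPKM in the K107R rosiglitazone libraries, 4.00 and 4.07 with K107R vehicle, 4.56 and 4.30 with WT rosiglitazone, and 6.08 and 5.87 with WT vehicle (log2 interaction 1.00 ± 0.19 SE, adjusted p = 0.0181). Its K107R rosiglitazone libraries were highest, above those of WT vehicle. Cd209f, a lectin of the DC-SIGN family, had 13.8 and 12.6 FPKM in the K107R rosiglitazone libraries, 13.3 and 13.1 with K107R vehicle, 8.11 and 9.08 with WT rosiglitazone, and 18.4 and 15.7 with WT vehicle (log2 interaction 0.91 ± 0.18 SE, adjusted p = 0.0201). The ratio of ratios was 2.29 for Helz2 and 1.98 for Cd209f, and rosiglitazone lowered Cd209f in WT (log2 -0.91 ± 0.12 SE, adjusted p = 0.0185), while its response in K107R missed the test (adjusted p = 0.999). Pdpr, a regulator of pyruvate dehydrogenase phosphatase, had 1.60 and 1.95 FPKM in the K107R rosiglitazone libraries, 1.02 and 0.832 with K107R vehicle, 0.905 and 1.32 with WT rosiglitazone, and 2.04 and 2.89 with WT vehicle (log2 interaction 1.24 ± 0.26 SE, adjusted p = 0.0298). None of the 3 passed after rescaling (adjusted p = 0.637, 0.997 and 0.633), and they passed in 0, 2 and 2 of 8 fits with a library left out. Helz2 and Cd209f were chosen after their values were seen.

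Of the 70 genes below 0, K107R vehicle was not the group furthest from the others in 16, and among them was a mast cell protease. Tpsab1, a tryptase of mast cells (chromosome 17, 25343245 to 25345562), had 2.36 and 2.49 FPKM in the K107R rosiglitazone libraries, 7.44 and 5.87 with K107R vehicle, 39.5 and 36.8 with WT rosiglitazone, and 13.0 and 11.3 with WT vehicle. Rosiglitazone lowered it in K107R (log2 -1.15 ± 0.18 SE, adjusted p = 0.00266) and raised it in WT (log2 1.57 ± 0.18 SE, adjusted p = 0.00775), and the 4 groups did not overlap. The K107R rosiglitazone mean was 0.0743 times the sum of 32.6 FPKM and the ratio of ratios was 0.116 (log2 interaction -2.73 ± 0.25 SE, adjusted p = 7.54e-05). It passed in all 8 fits with a library left out and after rescaling.

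Of 9 measured mast cell genes, 0 passed above 0 and 1 below (2 with the replicate block), and the median was -0.39. Tpsb2, the tryptase next to it, was at 52.4 and 54.6 FPKM in K107R rosiglitazone, 42.1 and 32.0 with K107R vehicle, 107.1 and 86.5 with WT rosiglitazone, and 53.8 and 40.0 with WT vehicle (log2 interaction -0.51, adjusted p = 0.995). The 2 tryptases have similar sequences, so reads may be split between them, and Tpsb2 was chosen after its values were seen. The summed level of the 9 markers was 183 to 189 FPKM in K107R rosiglitazone, 124 to 147 in K107R vehicle, 425 to 444 in WT rosiglitazone and 199 to 223 in WT vehicle, none of them listed at 0 in both libraries of a group. Their part in the Tpsab1 result was not tested.

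Thrsp, the lipogenic regulator also called Spot 14, had 50.8 and 67.3 FPKM in the K107R rosiglitazone libraries, 156 and 174 with K107R vehicle, 211 and 261 with WT rosiglitazone, and 161 and 187 with WT vehicle. Rosiglitazone lowered it in K107R (log2 -1.48 ± 0.22 SE, adjusted p = 0.00183). In WT the change was upwards and missed the test (log2 0.43 ± 0.22 SE, adjusted p = 1). The K107R rosiglitazone libraries were the lowest, at 0.260 times the sum (log2 interaction -1.91 ± 0.31 SE, adjusted p = 0.0053). It was the 1 of 18 lipogenesis and desaturation genes past the test below 0, with 0 above, 3 below with the replicate block, and a median of 0.07 that was -0.09 after rescaling. Gdpd3, an enzyme that releases lysophosphatidic acid and was chosen after its values were seen, had 10.3 and 8.84 FPKM in the K107R rosiglitazone libraries, 26.8 and 20.8 with K107R vehicle, 80.4 and 70.1 with WT rosiglitazone, and 56.6 and 48.8 with WT vehicle (log2 interaction -1.73 ± 0.30 SE, adjusted p = 0.00855). In K107R rosiglitazone it too was lowest. Thrsp missed the test after rescaling (adjusted p = 0.268), whereas Gdpd3 passed (adjusted p = 0.000469).

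Spp1, osteopontin, a secreted product of lipid-laden macrophages, had 214 and 215 FPKM in the K107R rosiglitazone libraries, 122 and 117 with K107R vehicle, 309 and 308 with WT rosiglitazone, and 86.0 and 88.1 with WT vehicle. Rosiglitazone raised it in K107R (log2 0.83 ± 0.12 SE, adjusted p = 0.0014) and more in WT (log2 1.82 ± 0.12 SE, adjusted p = 0.000431), so K107R rosiglitazone was 0.628 times the sum (log2 interaction -0.98 ± 0.17 SE, adjusted p = 0.00817). The 4 groups did not overlap. Of 21 macrophage markers it was the 1 past the test below 0, with 0 above (1 with the replicate block), and the summed level of the list was 8021 to 8333 FPKM in K107R rosiglitazone, 7848 to 7978 in K107R vehicle, 9559 to 10116 in WT rosiglitazone and 8269 to 8965 in WT vehicle. Hba-a1, an alpha globin of red cells, had 195 and 233 FPKM in the K107R rosiglitazone libraries, 286 and 294 with K107R vehicle, 385 and 475 with WT rosiglitazone, and 189 and 214 with WT vehicle (log2 interaction -1.52 ± 0.22 SE, adjusted p = 0.00283), with WT rosiglitazone highest. The 4 erythrocyte markers summed to 529 to 601 FPKM in K107R rosiglitazone, 684 to 813 in K107R vehicle, 1040 to 1541 in WT rosiglitazone and 471 to 610 in WT vehicle, and globin copies can share reads. Of these 4 markers 1 passed below 0, and 3 with the replicate block. After rescaling Spp1 and Hba-a1 missed the test (adjusted p = 0.159 and 0.319).

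**Figure D4:**
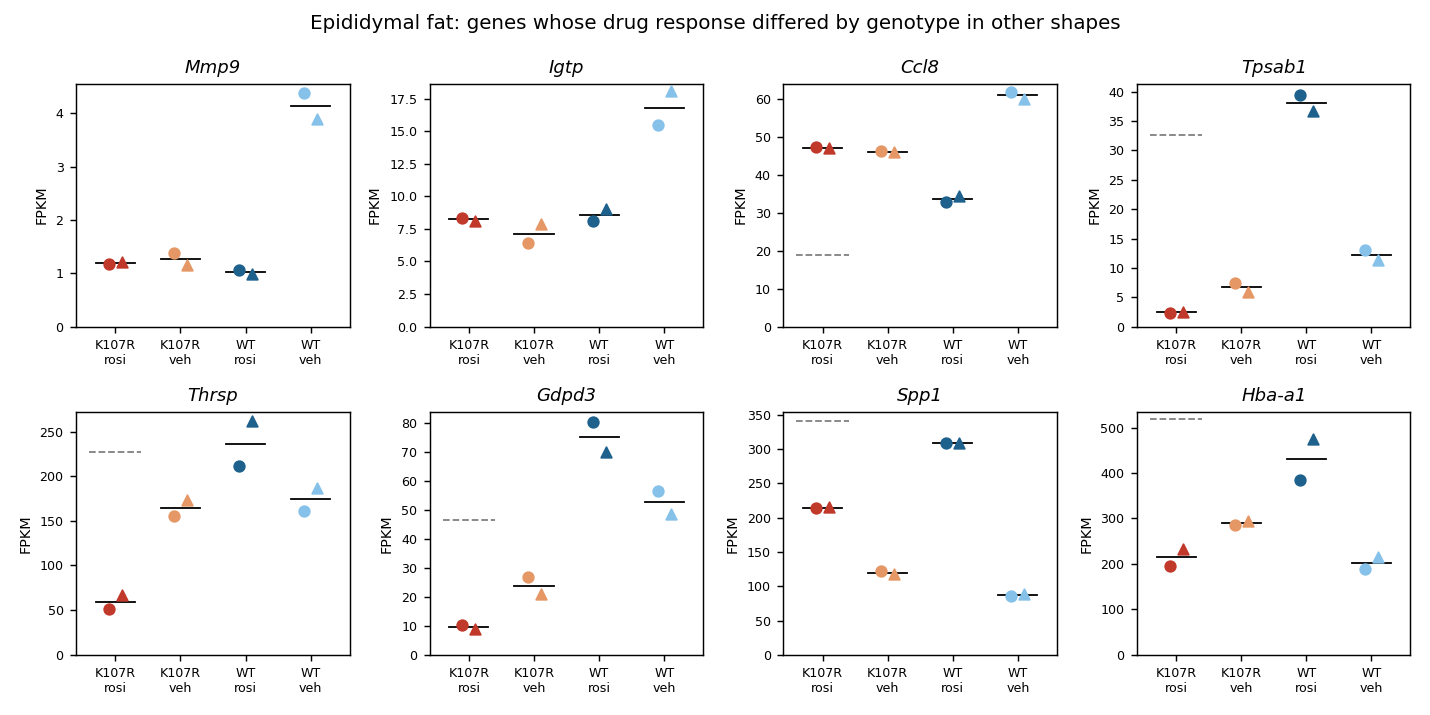
FPKM (y) of 8 genes of other shapes in the 2 libraries of each eWAT group (x; rosi, rosiglitazone; veh, vehicle), with circles for replicate number 1, triangles for number 2, solid bars for group means and a dashed bar for the sum of effects where it is above 0. WT vehicle is the high group for Mmp9 and Igtp and WT rosiglitazone the low group for Ccl8, while WT rosiglitazone is the high group for Tpsab1, Spp1 and Hba-a1 and K107R rosiglitazone the low group for Thrsp and Gdpd3.

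Most genes with an interaction below 0, 54 of 70, were high in K107R vehicle. Gstm7 (chromosome 3, 107926334 to 107931817) had 1.91 and 2.21 FPKM in the K107R rosiglitazone libraries, 111 and 93.9 with K107R vehicle, 2.63 and 2.14 with WT rosiglitazone, and 3.30 and 3.16 with WT vehicle (log2 interaction -4.75 ± 0.22 SE, adjusted p = 2.37e-07). The keratins Krt18 and Krt8, which form the filaments of simple epithelia, had log2 interactions of -4.23 and -3.26 (adjusted p = 3.51e-05 and 8.1e-06). Krt18 was at 1.49 ± 0.00547 FPKM in K107R rosiglitazone, 35.03 ± 12.6 in K107R vehicle, 3.39 ± 1.36 in WT rosiglitazone and 2.22 ± 0.430 in WT vehicle (SD, n = 2). Of 9 epithelium markers tested 5 were set aside, and of the 4 left 3 passed below 0 (4 with the replicate block) and 0 above. Over all genes 0.542% passed below 0. All 7 epididymis markers were set aside.

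Clu, clusterin, a chaperone abundant in epididymal fluid, had 24.7 and 19.5 FPKM in the K107R rosiglitazone libraries, 289 and 243 with K107R vehicle, 43.7 and 35.1 with WT rosiglitazone, and 60.4 and 54.4 with WT vehicle (log2 interaction -3.00 ± 0.36 SE, adjusted p = 0.000638). In iWAT the Clu interaction was -1.97 (limma adjusted p = 0.0342), and the difference between the depots, -1.03, missed the test. Cd52, a short glycoprotein of lymphocytes and of the epididymal epithelium that was chosen after its values were seen, had 188 and 159 FPKM in the K107R rosiglitazone libraries, 890.0 and 773 with K107R vehicle, 291 and 223 with WT rosiglitazone, and 334 and 251 with WT vehicle (log2 interaction -2.07 ± 0.28 SE, adjusted p = 0.00155). Both were well expressed in all 8 libraries, so the rule did not set them aside, and both exceeded every other library in K107R vehicle. Cyb561, a cytochrome of secretory vesicles, was at 3.37 ± 0.413 FPKM in K107R rosiglitazone, 46.9 ± 5.53 in K107R vehicle, 5.61 ± 0.189 in WT rosiglitazone and 5.21 ± 0.134 in WT vehicle (log2 interaction -3.54 ± 0.20 SE, adjusted p = 1.42e-06). Hdac6, the deacetylase of tubulin, was at 6.27 ± 0.254 FPKM in K107R rosiglitazone, 25.5 ± 1.08 in K107R vehicle, 5.86 ± 0.407 in WT rosiglitazone and 5.75 ± 0.0917 in WT vehicle (log2 interaction -1.89 ± 0.18 SE, adjusted p = 0.000103). Further genes of this shape were Spink2, Gldc, the glycine decarboxylase, Cited4, a transcriptional coactivator, Slc7a4, a membrane transporter, Spint2, an inhibitor of serine proteases, and Aspg, an asparaginase, with log2 interactions of -3.69, -3.20, -3.16, -2.68, -2.51 and -1.995. Spink2 passed in 3 of 8 fits with a library left out and Krt7, the third keratin past the test, in 2, and both missed the test with a pseudocount of 0.1 (adjusted p = 0.218 and 0.43). These genes and the epididymis markers were high in the same group, K107R vehicle, and the part of that tissue in each was not tested.

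Other lists held few or no calls. Of 20 genes of insulin signalling and glucose uptake, 23 for PPARg with its partners and for SUMO attachment, 17 linked to PPARg phosphorylation, 16 of the circadian clock, 14 of endothelial and mural cells, 12 of fibroblasts and progenitors, and 11 of mature fat cells, 0 passed in either direction. Their medians were 0.37, 0.32, 0.21, 0.22, 0.21, -0.10 and 0.34 in that order, beside 0.16 over all genes. Of 20 collagen and matrix genes 1 passed above 0, Mmp9, and 0 below, with a median of 0.09 (3 above and 2 below with the replicate block). Of 10 acute phase genes 0 passed (1 below 0 with the replicate block), with a median of -0.34. Saa3, the serum amyloid of inflamed fat, had 15.3 and 16.4 FPKM in the K107R rosiglitazone libraries, 56.9 and 75.0 with K107R vehicle, 41.6 and 52.9 with WT rosiglitazone, and 81.6 and 75.2 with WT vehicle (log2 interaction -1.25, adjusted p = 0.0566, and 0.00345 with the block). Of 7 mesothelium and 7 skeletal muscle markers 0 passed, with medians of -0.61 and -0.57, and with the replicate block 3 and 2 of them passed below 0. Ppara, the receptor of fatty acid oxidation, had 1.93 and 1.99 FPKM in the K107R rosiglitazone libraries, 0.943 and 0.687 with K107R vehicle, 1.02 and 0.932 with WT rosiglitazone, and 0.814 and 0.698 with WT vehicle (log2 interaction 0.54, adjusted p = 0.682). The interaction differed between eWAT and iWAT in 91 of the 12920 genes (0.704%), 34 of them among the 100. Irs2, a docking protein of the insulin receptor, lay at 1.40 times the sum (adjusted p = 0.208).

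**Figure D5:**
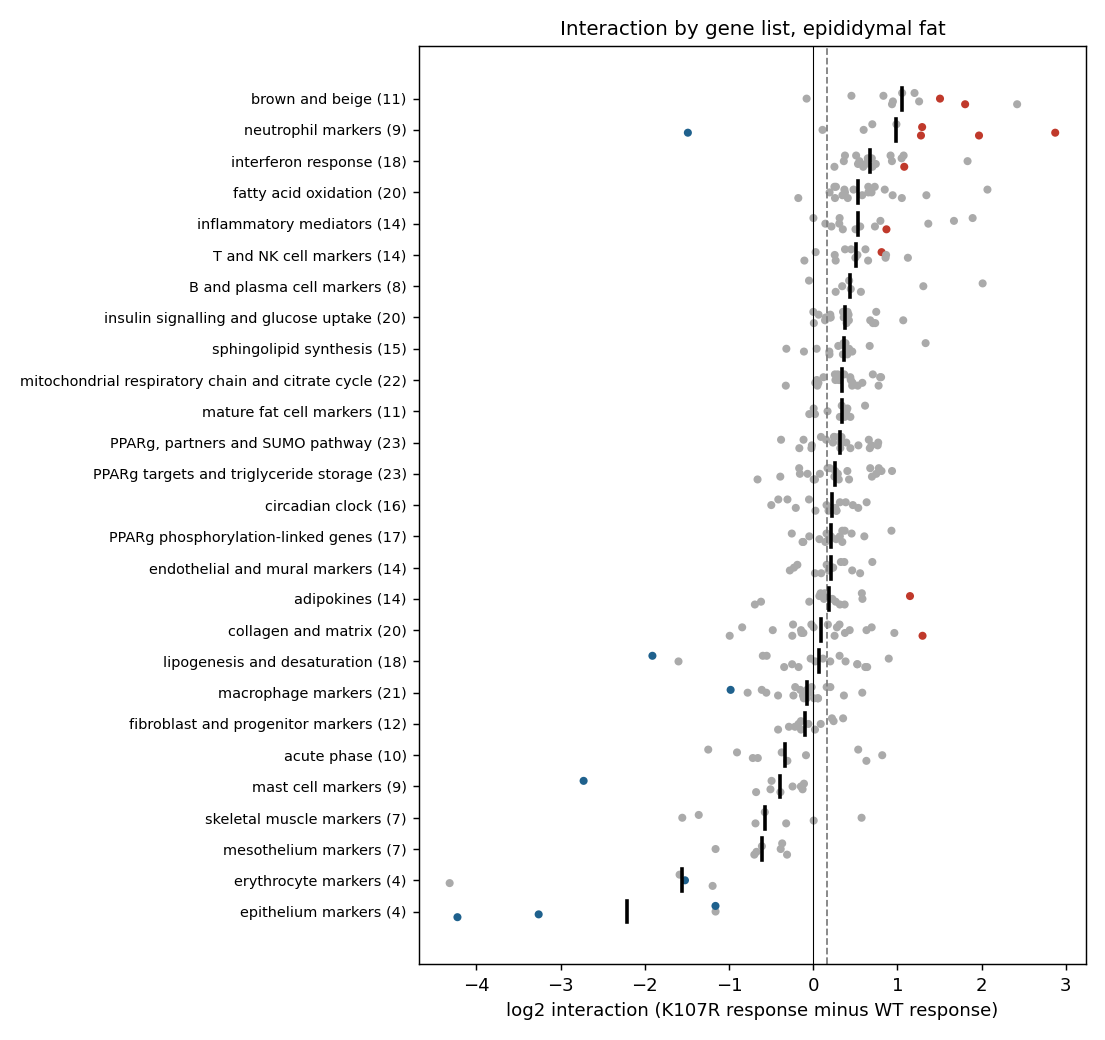
Log2 interaction (x) of the measured members of each gene list (y, with the number measured), 1 point per gene, red and blue where past the test above and below 0, with a bar at each list's median. The solid line is 0 and the dashed line the median of all 12920 genes, 0.16, with brown and beige genes and neutrophil markers at the top (medians 1.06 and 0.99) and epithelium markers at the bottom (-2.21).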

How the data were processed

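Messenger RNA of epididymal and inguinal fat was sequenced as 75-nt single reads from stranded libraries made from 4 ug of total RNA, per the labels' protocols. The authors deposited 1 table of FPKM values for 14023 genes in 16 libraries. The submitters' processing notes name mm10 as the build, and Cufflinks 2.2.1, TopHat2 2.0.12 and CASAVA 1.8.2 as tools, while the annotation, the strand setting and the scaling are not given in the sources used here. FPKM carries no counts, so depth is unknown and no counting interval was computed.

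Genes that reached 1 FPKM in 2 or more libraries were tested on log2(FPKM + 1) with limma 3.58.1 in R 4.3.3, with 1 mean per group over 16 libraries, a mean-variance trend and two-sided p-values adjusted (Benjamini-Hochberg) over 13669 genes. The error of the departure from a sum was carried from that fit by the delta method. Genes set aside were removed after adjustment. Scripts were tested on simulated data. Coordinates came from GENCODE M21 (GRCm38, the assembly of mm10), and 13520 symbols matched the gene name table. The members, the 28 lists and the tests were chosen with earlier results of these data known.

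Genes were named by rule: up to 12 per direction with the largest interaction past the test, a group mean of at least 2 FPKM and 1 sign over all 16 library choices, up to 8 per direction past the additive test by size over error, and up to 4 members of each list past the test, or 2 with the smallest p. Genes chosen otherwise are marked as chosen after their values were seen.

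The labels give replicate numbers 1 and 2 with no meaning. Deviations of same-numbered libraries from their group means correlated in 28 of 28 pairs of groups (0.121 to 0.791), so the numbers may pair the libraries. In the 6 eWAT pairs the correlation was 0.121 to 0.635. The number 2 library of K107R rosiglitazone in eWAT stood apart in Actb, so 1 shared block may describe that group poorly. The fit with the replicate block is given where it changes a call of a list or of a gene whose test is printed. The alternatives tried were this block, a pseudocount of 0.1 or none, no filter, rescaling by the median ratio, eWAT libraries alone, a set-aside limit of 10%, set-aside genes kept or left out before the fit, limma on plain FPKM, and each eWAT library left out.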

Additional observations from a re-analysis of the deposited data

Results flagged for a closer look

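The genotype by drug interaction in eWAT was set against the same interaction in iWAT by 1 contrast over all 16 libraries, a comparison chosen after the data were seen. Of the 12920 genes, 91 passed (0.704%), 34 of them among the 100 genes with an eWAT interaction past the test. The named genes below are those whose interaction differed between the depots, given as eWAT minus iWAT on the log2 scale with limma's adjusted p. Many were named for a large eWAT interaction, so a difference from iWAT follows in part from that choice.

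Among genes with an eWAT interaction above 0, the difference was positive for Ldoc1 at 1.96 (adjusted p = 0.000228), Ngp at 1.74 (0.00202), Mpo at 1.25 (0.000348), Rspo4 at 1.33 (0.00861) and Pdpr at 1.63 (0.0487). Ngp, Mpo and Rspo4 entered the test through the eWAT K107R rosiglitazone libraries, where they are high. They stayed under 1 FPKM in iWAT, so their differences are a description. Cd4 differed by 2.53 (adjusted p = 0.000121), with an interaction of 0.81 in eWAT and -1.72 in iWAT. The tryptase Tpsab1, osteopontin Spp1 and the globin Hba-a1 differed downwards, with Tpsab1 at -1.70 (adjusted p = 0.0342), Spp1 at -1.11 (0.0366) and Hba-a1 at -1.86 (0.00966).

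Genes high in the eWAT K107R vehicle libraries made up the rest. These were Gstm7 at -4.75, Krt18 at -4.63, Cyb561 at -3.70, Krt8 at -3.45, Gldc at -3.33, Nupr1l at -3.04, Cited4 at -2.89, Slc7a4 at -2.57, Hdac6 at -1.94, Aspg at -1.84 and Ltf at -1.63, with adjusted p between 6.84e-06 and 0.0335. Their interactions in iWAT lay between -0.27 and 0.40. The epididymis markers stood high in the same libraries, and their part was not tested.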

How the results depend on the processing

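With 100 genes past the interaction test (30 above 0, 70 below 0), 47 above and 73 below the sum, the counts moved by over 1.5 times under these alternatives. With the replicate block they were 304, 114, 190, 158 and 188, and with the block after rescaling 555, 194, 361, 228 and 373. Leaving the set-aside genes out before the fit gave 51, 10, 41, 20 and 42, and keeping them in the counts gave 285 in all, 253 below 0 and 264 below the sum. No pseudocount, chosen after the data were seen, gave 43, 11 and 32. The eWAT libraries alone gave 42 below 0 and 42 below the sum, a pseudocount of 0.1 gave 43 below the sum and limma on plain FPKM gave 44. With 1 eWAT library left out the ranges were 57 to 88 in all, 13 to 19 above 0, 44 to 70 below 0, 17 to 36 above the sum and 45 to 58 below it; the lowest counts above the sum were without either K107R rosiglitazone library (17 and 19). The lone library of a group is then assumed to vary like the others.

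All 30 calls above 0 and all 70 below 0 also passed with the replicate block, and 10 and 41 of them with the set-aside genes left out first. Of 85 named interactions the block moved 17 past the test and lost 0, and it changed no other call among them. Rescaling lost 17 and brought in 8. Values that turned sign were Ptpn1, an insulin receptor phosphatase, at -0.006966 log2 and -0.763 FPKM from the sum after rescaling, with the block or without, and Rbp7, at -5.46 FPKM from the sum without WT rosiglitazone replicate 1 and up to 67.6 FPKM with another library left out, none of them past the test. The causes were not tested. Without counts, the depth that limits low genes is unknown, and 7 of the 30 genes above 0 and 7 of the 70 below 0 had no group mean of 2 FPKM.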
